A study of Rattus norvegicus with 8 samples.

Results

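Adrenergic receptors are the cell surface proteins through which noradrenaline from sympathetic nerves and adrenaline from the adrenal gland act on vessels. The 8 receptor genes described here (Adra1a, Adra1b, Adra1d, Adra2a, Adra2b, Adra2c, Adrb1 and Adrb3) were chosen by name, as every gene probe whose transcript accession belongs to one of them. They were read by 11 of the 45598 gene probes on the array and are 8 of the 16678 genes that could be named. Only probes that the scanner marked well above background on 3 or more arrays of a group were kept, which left 9 receptor probes among 27822 kept probes. These represent 7 receptor genes among 24552 tests, and Adra2c was not tested.

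The alpha-1 receptors sit mainly on vascular smooth muscle, couple through Gq to phospholipase C and calcium release, and contract the vessel. Alpha-2 receptors couple to Gi and lower cyclic AMP. They restrain noradrenaline release at nerve endings and also act on endothelium and smooth muscle. Beta receptors couple to Gs and raise cyclic AMP, which relaxes vascular muscle, speeds the heart and drives fat breakdown in adipocytes.

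The samples were vessels of 4 hypertensive male rats, which the labels call a disease model, and of 4 control male Wistar-Kyoto rats, which are normotensive. Wistar-Kyoto is also written as the strain of the hypertensive rats, so their strain is not settled here, and age and the vessel taken are not given in the sources used here. Each rat gave 1 array labelled with 1 dye, and the comparison asks how receptor transcripts differ between the groups. Levels below are log2 of the processed spot signal minus the array's 75th percentile, so a level of 0 equals that percentile, and levels of probes of different genes are not compared.

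The 75th percentile of the signal was 357 to 478 in hypertensive arrays and 405 to 503 in control arrays, and 58.7% to 63.2% against 59.5% to 64.1% of probes were well above background. All 8 arrays lay on 1 slide, with the hypertensive arrays in one row and the control arrays in the other, so slide row and group cannot be told apart. The smooth muscle marker Myh11 and the endothelial marker Vwf were well above background on all 8 arrays. Myh11, the smooth muscle myosin heavy chain, averaged 7.17 ± 0.28 in hypertensive and 7.09 ± 0.20 in control vessels (SD, n = 4 each). Vwf, which marks endothelium, averaged 6.35 ± 0.36 in hypertensive and 5.89 ± 0.15 in control vessels (SD, n = 4 each). That is a log2 difference of 0.46, where a second kept Vwf probe, also well above background on all 8 arrays, differed by only 0.097. Hypertensive replicate 4 stood apart in adipocyte genes: the summed level of 9 white adipocyte markers, in multiples of the 75th percentile signal, was 91.5 there, compared with 20.4 to 28.4 on hypertensive replicates 1 to 3 and 23.0 to 36.8 in controls. The share of all tests past the threshold, a limma adjusted p under 0.05, was 4.53%, and lists this short say little against it. Past it were 0 of 8 smooth muscle, 0 of 8 endothelial, 0 of 6 fibroblast and adventitia, 0 of 9 white adipocyte, 0 of 4 brown adipocyte, 0 of 7 nerve and Schwann cell and 0 of 2 adrenal and kidney markers. Of 7 cardiac and skeletal muscle markers 1 was higher (Myh1, dim in controls at a mean of -5.11). In that list Myh2 was higher (0.73, limma adjusted p 0.0552) and Acta1 lower (-0.42, 0.191) without passing. Its other markers lay between -0.14 and 0.24. Of 7 macrophage markers 1 was lower (Mrc1). The macrophage list had a median log2 difference of -0.47. Cd163 (-0.68, limma adjusted p 0.0599), Csf1r (-0.49, 0.0557) and Adgre1 (-0.47, 0.118) were lower without passing. C1qa (-0.089), C1qb (0.0072) and Cd68 (-0.053) were nearly level. Among the 2 brightest markers of each list, the mast cell list below included, the largest log2 differences were 1.22 for Srgn (limma adjusted p 0.00867), 0.99 for S100b (0.0984), -0.95 for Col1a1 (0.277) and 0.82 for Cma1 (0.0915). The others lay between -0.29 (Cidea) and 0.48 (Cpt1b) and did not pass.

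No tested receptor gene passed the threshold in either direction. In the limma fit across all genes, 0 of 7 had an adjusted p under 0.05, where 4.53% of all tests did (2.61% higher and 1.91% lower in hypertensive vessels). Adra1a was estimated higher and Adra1d lower, each with an unadjusted p under 0.05 in limma. Such a p was reached by 2 of the 7 receptor genes and by 20.3% of all tests. The levels of the hypertensive and control arrays overlapped for 7 of 7 receptor genes, while the groups were apart for 13.6% of all tests. A plain equal-variance test called 0 of the 7 as well, and 2.42% of all tests. Estimates pointed higher for 6 of the 7 receptor genes and lower for Adra1d, but that of Adrb1 was 0.012 and changed sign with the processing. The median log2 difference of the 7 receptor genes was 0.14, against 0.041 over all tests, and the share of all tests pointing higher was not counted. In absolute terms their median log2 difference was 0.46, against 0.15 over all tests, and their median standard error was 0.21, against 0.12 over all tests.

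**Figure D1:**
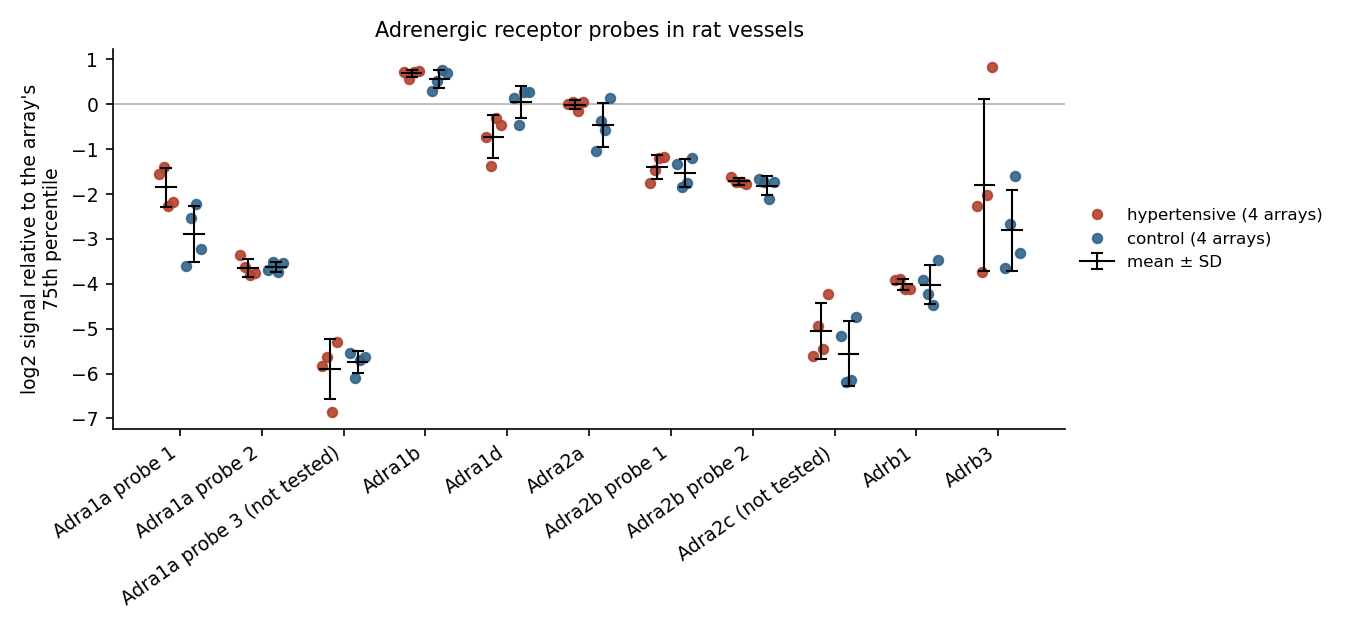
Level of each of the 11 receptor probes on every array (log2 signal relative to the array's 75th percentile). Red points are the 4 hypertensive arrays, blue points the 4 control arrays, and bars give the mean ± SD. The groups overlap for each tested receptor gene, and 1 hypertensive array lies far above the rest for Adrb3.

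Among the alpha-1 receptors, Adra1a encodes the subtype that contracts many small arteries. It was read by 3 probes. The brightest, designed to a predicted transcript, had levels of -1.55, -1.40, -2.26 and -2.18 in hypertensive replicates 1 to 4, against -3.60, -2.54, -2.23 and -3.22 in control replicates 1 to 4. Hypertensive replicates 1 and 2 were the highest of all 8 arrays, while control replicate 3 lay between hypertensive replicates 3 and 4. The means were -1.85 ± 0.44 in hypertensive and -2.90 ± 0.63 in control vessels (SD, n = 4 each). This is a log2 difference of 1.05 ± 0.32 (SE of the limma fit, 95% interval 0.32 to 1.78), or 2.07-fold, with a limma adjusted p of 0.110. Leaving out single arrays moved the difference between 0.82 and 1.27, with limma adjusted p between 0.0779 and 0.231.

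The other kept Adra1a probe, designed to the curated transcript, did not show this difference. Its levels were -3.36, -3.63, -3.80 and -3.77 in hypertensive and -3.70, -3.52, -3.73 and -3.53 in control replicates 1 to 4. Both groups covered the same narrow range, and the log2 difference was -0.020 ± 0.12 (SE) with a limma adjusted p of 0.944 in the fit with every kept probe as its own test, where 4.37% of 27822 probes passed and 0 of 9 receptor probes did. The third probe, also to the curated transcript, was well above background only on hypertensive replicate 4 and control replicate 1, so its levels are near background. They ran from -6.85 to -5.29 in hypertensive and from -6.11 to -5.55 in control vessels.

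Both kept Adra1a probes were therefore set against each other on each array. The brightest exceeded the other kept probe by 1.79 on average in hypertensive vessels (1.54 to 2.23) and by 0.72 in control vessels (0.10 to 1.5), all on the log2 scale. These ranges did not overlap. The difference of 1.07 had a two-sided exact permutation p of 0.0286, the smallest that the 35 divisions of 8 arrays into 4 and 4 allow. Adjusted over the 2 receptor genes with a pair of kept probes, it was 0.0571 and missed the threshold. When all kept probes of a gene were averaged, the log2 difference of Adra1a was 0.51, with a limma adjusted p of 0.178. Of the kept probes only the brightest carries the Adra1a estimate, and whether it reads Adra1a transcripts only was not tested.

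Adra1b, another smooth muscle subtype, was nearly level between the groups. Its 1 probe gave 0.72, 0.57, 0.72 and 0.74 in hypertensive and 0.30, 0.52, 0.77 and 0.69 in control replicates 1 to 4. Hypertensive replicates 1, 3 and 4 were almost equal, with replicate 2 below them, and the control values spread on both sides. The log2 difference was 0.12 ± 0.11 (SE, 95% interval -0.14 to 0.37) with a limma adjusted p of 0.590. In bulk tissue, fewer cells of a type and less RNA per cell cannot be told apart, for Adra1b and for each receptor below.

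Adra1d encodes the alpha-1 subtype that mediates contraction of the rat aorta. Its 1 probe gave -0.73, -1.38, -0.30 and -0.47 in hypertensive replicates 1 to 4, against 0.13, -0.46, 0.28 and 0.28 in control replicates 1 to 4. Control replicates 1, 3 and 4 lay above every hypertensive array, and control replicate 2 lay within the hypertensive range. The means were -0.72 ± 0.47 in hypertensive and 0.057 ± 0.35 in control vessels (SD, n = 4 each). The log2 difference was -0.78 ± 0.25 (SE, 95% interval -1.35 to -0.21), or 1.71-fold lower, with a limma adjusted p of 0.126. Over the fits with 1 array left out it lay between -0.95 and -0.56, with limma adjusted p between 0.0930 and 0.250. Summed smooth muscle markers, the cells that mainly carry alpha-1 receptors, were 316 to 453 in hypertensive and 295 to 403 in control vessels, with 0 of 8 markers past the threshold, and their part in the Adra1d values was not tested.

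Adra1a and Adra1d passed the threshold with normexp, a model-based background correction that started here from the median spot signal and adds an offset of 50, which shrinks differences of dim probes. Under it 2 of 7 receptor genes passed, where 7.56% of all tests did. Adra1a then differed by 0.66 with a limma adjusted p of 0.0402, and Adra1d by -0.64 with a limma adjusted p of 0.0456. Both differences were smaller than with the processed signal, and which of these changes moved the calls was not tested.

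**Figure D2:**
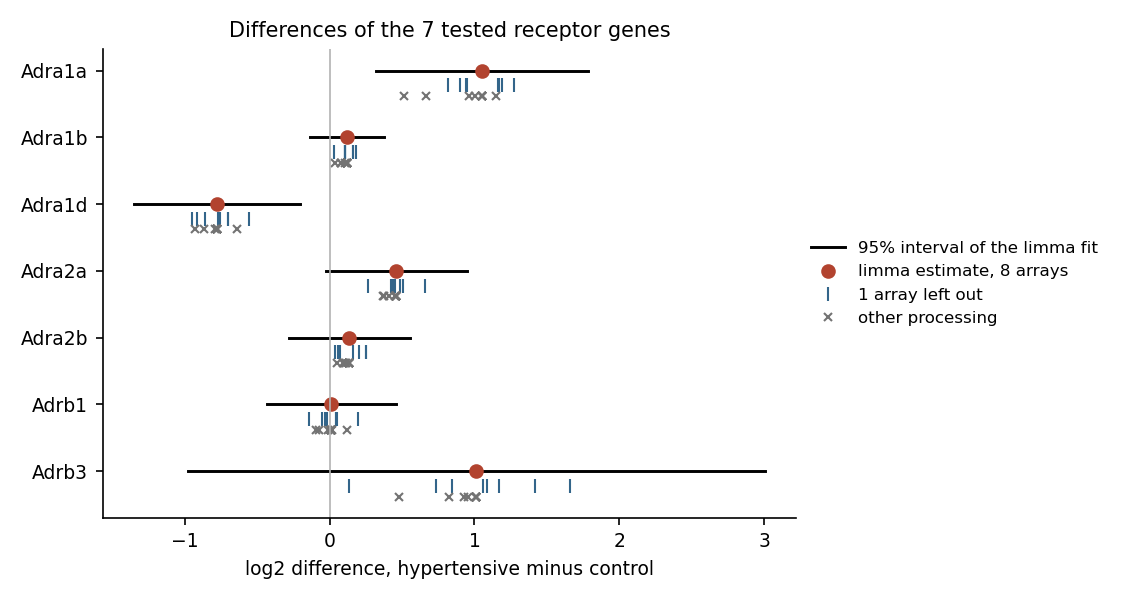
Log2 difference, hypertensive minus control, of the 7 tested receptor genes. Red points are limma estimates over 8 arrays with 95% intervals as black lines, blue ticks are fits with 1 array left out, and grey crosses are other processing settings. The intervals of Adra1a and Adra1d lie on opposite sides of 0, and the Adrb3 interval runs from -0.98 to 3.0.

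Adra2a, the first of the alpha-2 receptors, encodes the main autoreceptor that limits noradrenaline release from sympathetic nerve endings. Hypertensive replicates 1 to 4 gave 0.014, 0.048, -0.15 and 0.058, against -1.04, -0.38, -0.57 and 0.13 in control replicates 1 to 4. The hypertensive arrays were close together above 3 of the controls, while control replicate 4 was the highest of all 8. The SD over arrays was 0.095 in hypertensive and 0.48 in control vessels (n = 4 each). The log2 difference was 0.46 ± 0.21 (SE, 95% interval -0.028 to 0.95) with a limma adjusted p of 0.273. Without control replicate 4 it was 0.66, with a limma adjusted p of 0.0750.

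Adra2b encodes an alpha-2 subtype that contracts vascular smooth muscle, and 2 kept probes to the same curated transcript read it. The brighter probe gave -1.75, -1.47, -1.19 and -1.18 in hypertensive and -1.34, -1.84, -1.76 and -1.19 in control replicates 1 to 4, which is one shared range. Its log2 difference was 0.14 ± 0.18 (SE, 95% interval -0.28 to 0.55) with a limma adjusted p of 0.713. The second probe gave -1.61, -1.74, -1.72 and -1.78 in hypertensive and -1.66, -1.73, -2.11 and -1.73 in control replicates 1 to 4. Apart from control replicate 3 these were nearly equal, with a log2 difference of 0.095 ± 0.11 (SE) and a limma adjusted p of 0.675. The gap between both probes was 0.32 in hypertensive and 0.28 in control vessels, a difference of 0.043 with a two-sided exact permutation p of 0.914.

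Adra2c, an alpha-2 subtype that in mice also restrains noradrenaline release, was near background. Its 1 probe was well above background only on hypertensive replicate 4 and control replicates 1 and 4. Levels were -5.62, -4.94, -5.45 and -4.23 in hypertensive and -5.15, -6.19, -6.15 and -4.74 in control replicates 1 to 4. With no filter on dim probes, Adra2c differed by 0.50 ± 0.41 (SE) with a limma adjusted p of 0.645. This difference was not detectable at this signal and spread.

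Adrb1 encodes the beta receptor that speeds the heart and stimulates renin release. It gave -3.93, -3.89, -4.11 and -4.12 in hypertensive and -3.92, -4.23, -4.48 and -3.47 in control replicates 1 to 4. The hypertensive arrays lay inside the wider control range. The log2 difference was 0.012 ± 0.20 (SE, 95% interval -0.44 to 0.46) with a limma adjusted p of 0.983, and its sign turned with quantile normalization (-0.090), median centring (-0.074) and array weights (-0.013).

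Adrb3 encodes the beta receptor of adipocytes, which drives fat breakdown. It gave -2.27, -3.73, -2.02 and 0.84 in hypertensive and -3.65, -2.67, -1.60 and -3.32 in control replicates 1 to 4. Hypertensive replicate 4 lay far above the other 7 arrays, which shared one range. The log2 difference was 1.01 ± 0.88 (SE, 95% interval -0.98 to 3.0) with a limma adjusted p of 0.559. Without hypertensive replicate 4 it was 0.13, and without hypertensive replicate 2, the lowest array, it was 1.66. The processed signal of Adrb3 was 857 units on hypertensive replicate 4, compared with 29.4 to 96.6 on hypertensive replicates 1 to 3 and 37.8 to 166 on control arrays.

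The summed white adipocyte markers ordered the arrays much as Adrb3 did. Their sums were 28.4, 20.4, 26.6 and 91.5 in hypertensive replicates 1 to 4 and 23.0, 32.2, 36.8 and 25.0 in control replicates 1 to 4. Hypertensive replicate 4 had the highest sum and the highest Adrb3 level, hypertensive replicate 2 the lowest of both, and control replicate 3 the second highest of both. Of the 10 adipocyte markers, 9 were tested, 0 passed the threshold, and Plin1, which coats lipid droplets, was well above background on hypertensive replicate 4 only. The brown adipocyte markers Ucp1 and Cox8b missed the filter but were also highest there. Of the other brown adipocyte markers, Cidea and Cpt1b were highest there too, while Dio2, Ppargc1a and Elovl3 were not. Dio2 was -4.13 on hypertensive replicate 4 and -2.27 on hypertensive replicate 1. Ucp1 was -2.13 on hypertensive replicate 4, -6.60 to -4.08 on hypertensive replicates 1 to 3 and -7.45 to -4.66 in controls. Cox8b was -2.50 on hypertensive replicate 4, -6.18 to -4.94 on hypertensive replicates 1 to 3 and -5.81 to -4.81 in controls. The part of fat cell content in the Adrb3 values was not tested.

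**Figure D3:**
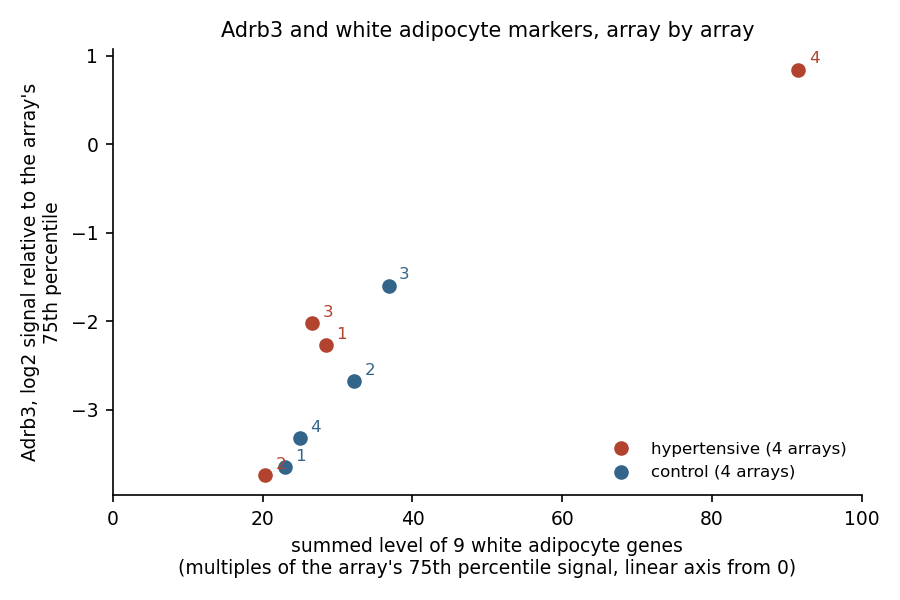
Adrb3 level (log2 signal relative to the array's 75th percentile) against the summed level of 9 white adipocyte markers (multiples of the 75th percentile signal) on each of the 8 arrays, labelled by replicate number. Hypertensive replicate 4 lies at a sum of 91.5 and an Adrb3 level of 0.84, and the other 7 arrays lie at sums of 20.4 to 36.8.

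For each tested receptor gene, the 3 named genes with the most similar levels over the 8 arrays were found among 11958 candidates by Pearson's r. The arrays share group, slide and scan, and with so many candidates high values arise readily, so these are descriptions only. Adra1a ran most closely with Oxct2b (r = 0.996, and 0.990 after each group's mean was subtracted), a ketone-using enzyme, then with Bpgm (0.988) and the olfactory receptor Or2b4 (0.982). Adrb3 ran with Thrsp (0.992, and 0.991 within groups), a regulator of fat synthesis, with the lipid droplet gene Cidec (0.981) and with Tlcd3b (0.970). Cidec is also one of the adipocyte markers above.

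The remaining receptors had these nearest genes. Adra1d ran with C3h11orf96 (0.962), the kinase Mark2 (0.961) and LOC102547513 (0.945). For Adra1b they were Asmtl (0.972), Cdk10 (0.967) and Bag5 (0.944). Adra2a was nearest to Crispld2 (0.966), Arhgef16 (0.951) and Obp3 (0.943). Values for Adra2b were 0.946 with Zfp503, 0.941 with Hook2 and 0.931 with Hars2. For Adrb1 they were lowest, with Slc35f6 at 0.923, Defb51 at 0.908 and Or13a27d at 0.906. No 2 receptors shared a nearest gene.

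Around the receptors, 97 genes were listed in 6 groups for making, storing and clearing catecholamines, for co-transmitters and for the signalling steps downstream. Of these 81 were tested, 3 were higher and 3 lower in hypertensive vessels, which is 7.41% against 4.53% of all tests. Their median log2 difference was 0.026, against 0.041 over all tests.

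Among catecholamine genes, 1 of 14 tested rose and 0 fell, with a median of -0.077. Slc18a2, the vesicular transporter that loads monoamines into the vesicles of nerve endings and of rodent mast cells, gave -1.15, -1.32, -1.05 and -1.17 in hypertensive and -3.07, -2.82, -3.17 and -3.14 in control replicates 1 to 4. The groups were far apart, by 1.88 ± 0.10 (SE) or 3.67-fold with a limma adjusted p of 3.0e-05. Th, the rate-limiting enzyme of catecholamine synthesis, differed by 0.13 ± 0.097 (SE, limma adjusted p 0.491). Dbh, which makes noradrenaline, the noradrenaline transporter Slc6a2 and Slc18a1 were well above background on no array. Sult1a1 (0.39) and Slc29a4 (0.43), which inactivate and take up amines, came next with limma adjusted p of 0.129 and 0.147.

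The summed markers of a list that joins nerve with Schwann cells, and those of a mast cell list, lay apart between the groups. In each list the groups overlapped once 1 gene was taken out. This was not tested. The summed level of 7 sympathetic nerve and Schwann cell markers was 7.44 to 10.3 in hypertensive and 6.42 to 7.26 in control vessels, with 0 of 7 past the threshold and the nerve genes Dbh, Nefl and Nefm above background on no array. S100b, a Schwann cell protein, carried most of that gap: without it, a choice made after seeing its values, the sums were 5.49 to 6.96 in hypertensive and 5.38 to 5.76 in control vessels and overlapped. The summed level of 10 mast cell genes, a list added after values had been seen, was 15.0 to 26.7 in hypertensive and 8.49 to 12.7 in control vessels, with 1 of 10 past the threshold (Srgn, a granule proteoglycan, 1.22 higher). The gap depended on Srgn, at 1.92 to 2.94 in hypertensive and 1.17 to 1.23 in control vessels. Taking its linear level out of the sums, again after seeing values, put hypertensive replicate 1 below control replicate 2. The groups then overlapped, while the other hypertensive arrays stayed above all controls. Hdc, another gene of this list, differed by -0.050 (limma adjusted p 0.896), while the list median was 0.74. The part of nerve or mast cells in the Slc18a2 values was not tested.

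Of the sympathetic co-transmitter genes, 1 of 5 tested rose, with a median of -0.27. Npy2r, the neuropeptide Y receptor found mainly on nerve endings, gave -2.58, -2.76, -1.76 and -2.69 in hypertensive and -3.92, -3.74, -3.62 and -4.35 in control replicates 1 to 4. All hypertensive arrays exceeded all controls, by 1.46 ± 0.24 (SE) with a limma adjusted p of 0.0118, although a further Npy2r probe was above background on no array. Npy1r, the vascular neuropeptide Y receptor, differed by -0.27 (limma adjusted p 0.452), and Dpp4, a peptidase that trims neuropeptide Y, by -0.83 (limma adjusted p 0.156).

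The Gq and phospholipase C genes, which carry alpha-1 signals, had 1 of 17 higher and 1 lower, with a median of 0.15. Plce1, a phospholipase C, averaged 1.25 ± 0.085 in hypertensive and 0.81 ± 0.14 in control vessels (SD, n = 4 each; limma adjusted p 0.0349). Itpr3, a calcium release channel, averaged -1.02 ± 0.083 in hypertensive and -0.67 ± 0.085 in control vessels (SD, n = 4 each; limma adjusted p 0.0474). Plcb1, the phospholipase that Gq activates, was 0.44 higher without passing (limma adjusted p 0.0634), and Plcd1 was -0.24 (limma adjusted p 0.297).

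In the Gs, Gi, adenylyl cyclase and protein kinase A group, 0 of 22 rose and 1 fell, with a median of 0.067. The member that fell was Prkar1b, a regulatory subunit of protein kinase A, at 2.07 ± 0.14 in hypertensive and 2.61 ± 0.10 in control vessels (SD, n = 4 each; limma adjusted p 0.0161). Adcy5, an adenylyl cyclase, differed by 0.43 (limma adjusted p 0.126) and the kinase anchor Akap12 by -0.44 (limma adjusted p 0.158).

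None of the 12 desensitization and trafficking genes tested by limma had an adjusted p under 0.05, with a median of -0.043. Among them, the scaffold Nherf1 differed by -0.55 (limma adjusted p 0.114) and the receptor kinase Grk5 by -0.23 (limma adjusted p 0.131). Both had an unadjusted p under 0.05 in limma, as did 20.3% of all tests. Among 11 contraction genes 0 rose and 1 fell, with a median of 0.083. Myl9, the smooth muscle myosin light chain, averaged 6.84 ± 0.17 in hypertensive and 7.29 ± 0.096 in control vessels (SD, n = 4 each; limma adjusted p 0.0481). Cald1, the caldesmon gene, differed by 0.29 and did not pass (limma adjusted p 0.382).

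Some of these 6 calls were lost without single arrays. Slc18a2 and Npy2r passed under each of the 8 fits with 1 array left out and Prkar1b under 6, but Plce1 passed under 2 and Itpr3 and Myl9 under 1. Without hypertensive replicate 4, the array rich in adipocyte signal, 11 of the 81 genes passed, where 6.0% of all tests did. Without control replicate 3 only 2 did (2.83% of all tests). Leaving out hypertensive replicate 2 left 3 (2.80%), as did leaving out control replicate 1 (2.56%), 2 (2.95%) or 4 (3.34%). The share over all tests thus moved the same way. Among other processing settings, Plce1 was no longer called with median centring, no filter on dim probes or the plain equal-variance test. Itpr3 was lost with normexp or no filter, Myl9 with no filter or the plain test, Prkar1b with no filter and Npy2r with the plain test.

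**Figure D4:**
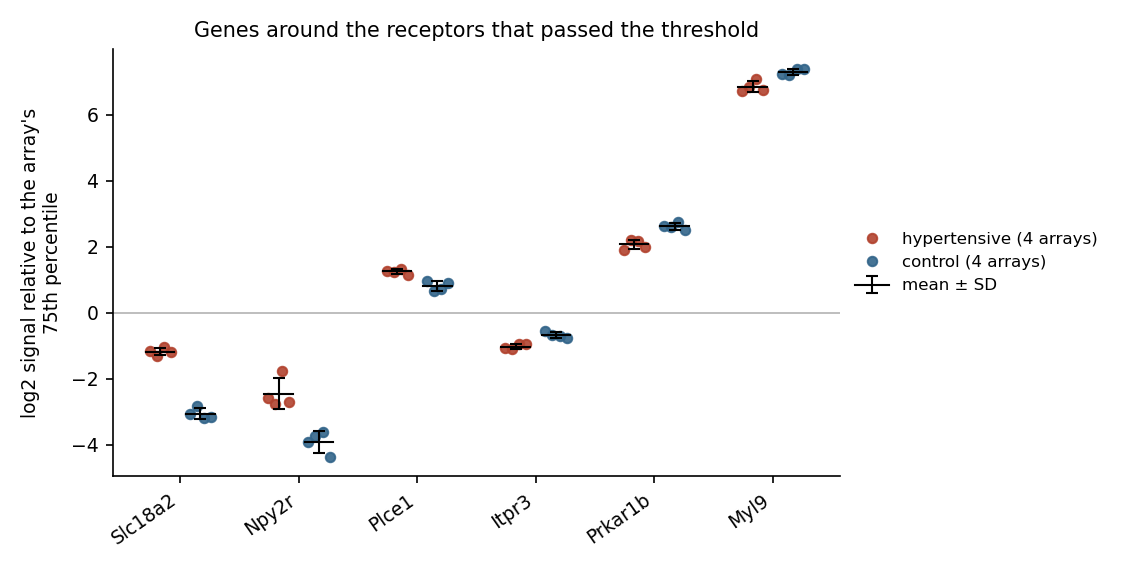
Levels on every array (log2 signal relative to the array's 75th percentile) of the 6 genes around the receptors that passed the threshold, with hypertensive arrays in red, control arrays in blue and the mean ± SD as bars. The 4 hypertensive Slc18a2 arrays lie between -1.32 and -1.05 and the 4 control arrays between -3.17 and -2.82.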

How the data were processed

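RNA of 8 vessels was measured on 1-colour Agilent arrays, from 100 ng of total RNA per the labels' protocols. The deposited scanner files hold spot intensity, already background-subtracted by Agilent Feature Extraction (10.7.1.1 per the file headers, 12.1.1.1 per the submitters' processing notes). The deposited value table holds a ratio, found here by dividing it into the scanner values to be processed intensity over a constant near each array's 75th percentile (0 probes above 1 were off by over 5%). Its medians were 0.101, 0.093, 0.097 and 0.090 in hypertensive and 0.092, 0.089, 0.086 and 0.091 in control replicates 1 to 4. Genes in it are not centred, and it was used as an alternative.

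From the deposited intensity, log2 values were averaged per probe after spots marked as outliers were dropped where another spot remained, and the array's 75th percentile was subtracted. A probe counted as above background with that mark on at least 50% of its spots. No spot was saturated. Symbols came from the RefSeq table of assembly GRCr8, matched on accession, which named 21229 of 45598 probes. The brightest kept probe stood for a gene, and unnamed probes stood for themselves. Groups, from the titles, were compared with limma 3.58.1 (lmFit, eBayes) in R 4.3.3 over all 24552 tests with Benjamini-Hochberg adjustment. The fit was tested on simulated data. The number of arrays limits the precision.

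The receptors, the 6 pathway and 9 marker lists were chosen with earlier results of these data known, and the mast cell list after seeing values. Named genes were all receptors, pathway genes past the threshold plus the next 2 by p, the 2 brightest markers of each list as a tissue check (the largest differences among them and Myh11 and Vwf are printed), and the 3 genes nearest each receptor. A gene that this rule names in the contraction list is not reported here. Th, Plin1, Ucp1, Cox8b, Dio2, Ppargc1a, Myh1, Mrc1, Srgn and genes above background on no array were named after their values were seen. So were Cd163, Csf1r, Adgre1, Cd68, Hdc, Myh2 and Acta1. Titles number the rats 1 to 4 in both groups. Deviations from group means of same-numbered arrays correlated at 0.21, 0.12, -0.0035 and -0.15, so the numbers were not taken as pairs. Alternatives were normexp, quantile normalization, median centring, other filters, the mean of probes, outlier spots kept, the value table, a plain equal-variance test, array weights, the replicate block and leaving out each array. Normexp used the median signal, since no mean signal column was at hand.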

Additional observations from a re-analysis of the deposited data

Results flagged for a closer look

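Among 58 groups of 4 arrays examined for 1 array far from the rest, 2 were found, and chance gives about 1 in 20. The Adra1b level of hypertensive replicate 2 was 0.57, where the other 3 hypertensive arrays lay between 0.72 and 0.74. The second Adra2b probe in control replicate 3 was -2.11, where the other 3 control arrays lay between -1.73 and -1.66. Hypertensive replicate 4, far above the rest for Adrb3, did not meet this criterion because the other hypertensive arrays were themselves widely spread.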

How the results depend on the processing

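The count of receptor genes past the threshold was 0 in the reported fit and in each fit without 1 array, where probes were kept as with all arrays. It was 2 with normexp (also 2 at probe level) and 1 with the replicate block, which called Adra1d (-0.78, limma adjusted p 0.0205). The replicate numbers were not shown to pair the arrays, and only hypertensive replicates 1 and 2 correlated best with their own number. Over the other processing settings Adra1a kept its direction at 0.51 to 1.15 and Adra1d at -0.93 to -0.64, and Adrb3 was 0.48 with array weights. The sign of Adrb1 turned with quantile normalization (-0.090), median centring (-0.074) and array weights (-0.013), and ran from -0.14 to 0.20 without single arrays. The second Adra1a probe turned to 0.073 with normexp and ran from -0.11 to 0.034 without single arrays, and the second Adra2b probe from -0.0063 to 0.14. The change between probes of Adra2b turned to -0.0058 with normexp and ran from -0.086 to 0.19 without single arrays. That of Adra1a was 0.59 with normexp and 0.86 to 1.33 without single arrays. All 1111 calls became 1857 with normexp, 641 with no filter, 593 with the plain equal-variance test, 675 with the replicate block and 629 to 1473 without single arrays (629, 725 and 695 without control replicate 1, 2 or 3, 688 without hypertensive replicate 2, 1473 without hypertensive replicate 4). The 6 pathway calls became 3 with no filter, 3 with the plain equal-variance test, where Npy2r was no longer called, 3 with the replicate block (Plce1, Itpr3 and Myl9 were lost) and 2 to 11 without single arrays. Higher and lower calls, 641 and 470, became 529 and 586 with quantile normalization and 422 and 652 with median centring. The cause of these changes was not tested. With no filter on dim probes the median over all tests was 0.12.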
